A study of Mus musculus with 2 samples.

Results

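The NKG2 and CD94 receptors are lectin-like receptors of natural killer (NK) cells and of some T cells. The 6 genes described here, Klrc1, Klrc2, Klrd1, Klrk1, Klre1 and Klri2, were chosen by name, and all 6 were among the 13528 genes of the filtered count table of 11929 liver cells. The cells were CD45+ leukocytes of C57BL/6 mice, profiled for poly-adenylated RNA and 49 antibody tags on BD Rhapsody beads, and none of the antibodies reads a member. TG cells (4647) came from dnTGFβRII mice, a model of primary biliary cholangitis that carries a dominant negative human TGF-β receptor II under the mouse Cd4 promoter, a promoter of T lineage cells. WT cells (7282) came from wild type mice. Both genotypes were 10 weeks old by the labels, although the methods state a younger age. TG cells shared their capture library with cells of IFN-γ ARE-Del-/- mice, and WT cells shared theirs with cells of P40-/-IL-2Ra-/- mice. Each genotype was thus 1 library, genotype and library cannot be told apart, and no test was possible; the number of mice behind a library is not given in the sources used here.

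Klrc1 encodes NKG2A, an inhibitory receptor, and Klrc2 encodes NKG2C, an activating receptor. Each pairs with CD94, the product of Klrd1, and the pair reads the non-classical MHC molecule Qa-1, encoded by H2-T23. Klrk1 encodes NKG2D, an activating homodimer that signals through DAP10 (Hcst) or DAP12 (Tyrobp) and binds stress-induced ligands of the Raet1, H60 and Ulbp1 families. Klre1 pairs with Klri1, which makes an inhibitory receptor, or with Klri2, which makes an activating receptor. In the liver these receptors are known from NK cells, from NKT cells and from memory-type CD8+ T cells.

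Klrc1 and Klrc2 differ at the start of their coding sequence. After translation of the longest coding transcript, the letters of a tyrosine motif of the inhibitory kind lay at residues 6 to 11 of 244 in Klrc1, inside the tail that faces the cytoplasm. No match was found among the residues encoded by the first 60 coding bases of Klrc2, but the same letters matched further on, at residues 89 to 94 of 238 in Klrc2 and at residues 190 to 195 of 232 in Klrk1. The letters alone therefore do not separate inhibitory from activating members. The opening 60 coding bases of both genes are given here because the ratio of their transcripts differed between the genotypes when all CD8αα T cells were counted. Capitals mark bases 16 to 33, which encode the motif in Klrc1.
Klrc1: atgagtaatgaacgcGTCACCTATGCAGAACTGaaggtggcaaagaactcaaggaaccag
Klrc2: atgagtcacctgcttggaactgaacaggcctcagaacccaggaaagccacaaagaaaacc
Klri1, the inhibitory partner of Klre1, held the motif at residues 16 to 21 and 47 to 52 of 248, and none was found in the 248 residues of Klri2, in Klrd1 or in Klre1. The coding sequences of Klrc1 and Klrc2 were identical at 81.0% of aligned columns, those of Klrc2 and Klrc3 at 88.1%, and those of Klri1 and Klri2 at 77.0%, so reads of these pairs can be harder to assign than reads of the others.

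The members lie side by side in the NK gene complex of chromosome 6. In GENCODE on GRCm38, the build of the deposited alignments (mm10), Klre1 (chr6:129577905-129585827) and Klrd1 (chr6:129591782-129598775) are on the plus strand. Klrk1 (chr6:129610323-129623864), Klrc2 (chr6:129647496-129660689), Klrc1 (chr6:129666015-129678973) and Klri2 (chr6:129729041-129740484) are on the minus strand. With Klrc3 and Klri1, which lie between them, they span 162580 bases. RefSeq promoter windows (GRCm38.p6) were found for 4 of the 6 members, Klrc1, Klrc2, Klrk1 and Klre1. The windows of Klrc1 and Klrk1, a member that was lower and a member that was higher in TG in different cell types, are given as the 250 bases before the start, read on the minus strand. Capitals mark the RUNX core TGTGGT or its reverse complement, since RUNX factors are known to act in cytotoxic lymphocytes.
Klrc1, chr6:129678974-129679223: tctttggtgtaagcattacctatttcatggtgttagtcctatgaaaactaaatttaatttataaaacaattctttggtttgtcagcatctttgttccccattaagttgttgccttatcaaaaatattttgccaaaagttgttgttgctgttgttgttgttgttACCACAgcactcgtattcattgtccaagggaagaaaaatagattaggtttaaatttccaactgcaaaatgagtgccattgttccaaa
Klrk1, chr6:129623865-129624114: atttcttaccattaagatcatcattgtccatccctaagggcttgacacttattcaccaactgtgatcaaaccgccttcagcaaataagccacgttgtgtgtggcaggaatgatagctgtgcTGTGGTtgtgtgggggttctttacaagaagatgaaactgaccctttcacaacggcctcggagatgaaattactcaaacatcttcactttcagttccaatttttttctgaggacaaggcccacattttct
Each of the 2 windows held 1 match. The Klrc2 window held 2 matches and the Klre1 window held 1, but both of those windows reach into the gene as GENCODE annotates it and are not given. The motif was present on either strand in 14.05% of 32851 mouse promoter windows of this length. The T-box letters TCACAC, on either strand, were in none of the 4 windows and in 12.29% of all windows. A match describes letters only.

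All named cells had at least 1000 unique molecular identifiers (UMIs), with a median of 3298 in TG and 2653.5 in WT and library totals of 18498477 and 22216379. Levels are CPM (counts for every 1000000 UMIs) of the UMIs summed over the cells of a type, with exact Poisson 95% intervals. Shares of cells with a UMI were taken after thinning every cell to 1000 UMIs, with Clopper-Pearson 95% intervals. All intervals cover counting error only and not the spread between mice. A ratio was called past 2-fold only where both profiles together held at least 20 UMIs. Of the cells with a genotype name, 36 carried a cell index that occurred in both libraries.

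The deposited names were compared with their markers before the results. Cells named NK held all 4 NK markers in both genotypes, with a summed level of 2467 CPM in TG against 3408 CPM in WT. The 5 T cell markers (Cd3d, Cd3e, Cd3g, Trac and Trbc2) were all detected among them as well, and summed to 4071 CPM in TG against 1617 CPM in WT. Cd3e had a UMI in 79.3% of NK-named TG cells and in 11.7% of NK-named WT cells. In TG the NK name therefore covers cells with T cell transcripts, and the levels of the 6 members in NK cells are also given by cluster. Cells named CD8αα T held Cd3e in 99.3% (TG) and 93.8% (WT) of cells, with Cd8a at 984 and 1104 CPM and Cd8b1 at 35.5 and 40 CPM. The γδ T cell gene Trdc had a UMI in 4.88% of CD8αα T cells in TG and in 42.3% in WT.

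Among cell types with at least 50 cells, Klrc1, Klrc2, Klrd1 and Klre1 had their 4 highest levels in NK, CD8αα T, NKT and CD8αβ T cells in both genotypes. Klrk1 did so in TG, whereas in WT its level in γδ T cells was above that in CD8αβ T cells, and Klri2 was low outside NK cells. In WT mice the NK level was the highest for each member, and the other cell types are described here against that level. Klrd1 in WT measured 1210 CPM in NK cells (interval 1157 to 1265) and 1195 CPM in CD8αα T cells (1105 to 1290), which were not told apart. NKT cells followed with 362 CPM, CD8αβ T cells with 277 CPM and plasmacytoid dendritic cells (pDC) with 231 CPM (203 to 262), the last 2 of which overlapped. In TG the order was led by CD8αα T cells at 910 CPM (860 to 963) and NK cells at 889 CPM (851 to 929), again not told apart. CD94 RNA was thus about as abundant in CD8αα T cells as in NK cells of either genotype.

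Klre1 had the same 2 leading types, with 1368 CPM in NK cells and 1327 CPM in CD8αα T cells of WT, and 1095 CPM and 1118 CPM in TG. Below them, WT NKT cells held 254 CPM and WT CD8αβ T cells 112 CPM. In TG these types stood in the reverse order, with 289 CPM in CD8αβ T cells and 216 CPM in NKT cells. Klrk1, the NKG2D gene, was at 792 CPM in NK, 513 CPM in CD8αα T, 299 CPM in NKT, 201 CPM in γδ T and 94.0 CPM in CD8αβ T cells of WT, and none of these neighbours overlapped. In TG it was at 680 CPM in NK, 608 CPM in CD8αα T, 188 CPM in CD8αβ T and 185 CPM in NKT cells, the last 2 not told apart.

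Klrc1 was graded in WT, from 461 CPM in NK cells (429 to 496) to 336 CPM in CD8αα T cells (290 to 388), 207 CPM in NKT cells and 64.6 CPM in CD8αβ T cells. In TG the grades lay closer together, with 138, 122, 113 and 80.3 CPM in the same order, and the intervals of NK, CD8αα T and NKT cells overlapped from neighbour to neighbour. Klrc2 led in NK cells of WT (285 CPM, against 236 CPM in CD8αα T cells, overlapping) but in CD8αα T cells of TG (199 CPM, against 125 CPM in all NK-named cells, not overlapping). Among NK-named TG cells, Klrc2 was at 288 CPM in cluster 8, where T cell markers were lowest, and at 74.8 and 67.9 CPM in clusters 3 and 11. Klrc1 was at 262, 125 and 72.2 CPM in the same clusters. The TG order of NK and CD8αα T cells for these 2 genes thus depended on the NK cluster counted. Klri2 was the narrowest member: WT NK cells held 467 CPM, the next type, CD8αα T cells, held 40 CPM, and 68.2% of those UMIs came from 3 cells. In TG it measured 145 CPM in NK cells and at most 14.7 CPM in any other type of at least 50 cells.

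The background level was read from mature B cells, which do not make these receptors. Without cluster 17, mature B cells held between 2.10 CPM (Klri2) and 10.1 CPM (Klrd1) in WT and between 1.57 CPM (Klrc1) and 17.3 CPM (Klre1) in TG for the members detected there, and Klri2 had 0 UMIs in TG. The share of these B cells with a thinned UMI was at most 0.971% in WT and 1.92% in TG, both for Klrd1. In NK cells the thinned shares for Klrd1 were 64.9% (61.0 to 68.7) in WT and 57.2% (53.6 to 60.7) in TG. CD4+ T cells held Klrd1 at 66.3 CPM in WT (55.3 to 78.7) and 34.3 CPM in TG (22.99 to 49.3), above these B cells at 10.1 CPM in WT and 15.1 CPM in TG.

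**Figure D1:**
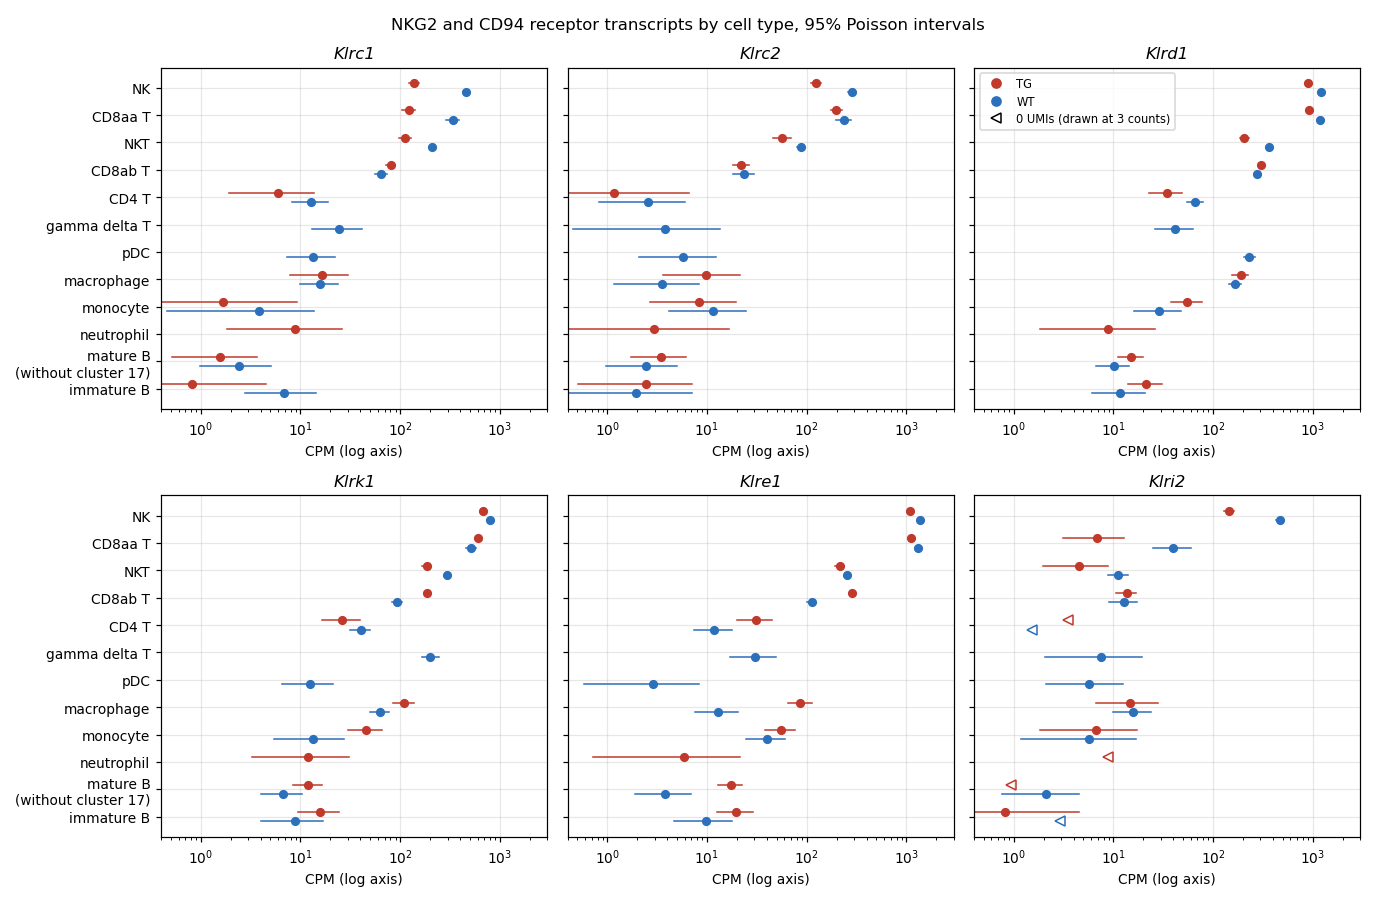
Level of each receptor transcript (CPM, log axis) by deposited cell type in TG (red) and WT (blue), with exact Poisson 95% intervals; only profiles of at least 50 cells are drawn. NK and CD8αα T cells led for most members, and Klri2 was at 467 CPM in WT NK cells against 40 CPM in the next type.

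In NK-named cells the question was which members differed between TG (759 cells) and WT (615 cells). Klrc1, Klrc2 and Klri2 were lower in TG, and the members with the highest levels in these cells, Klrd1, Klre1 and Klrk1, differed by less than 2-fold. Klrc1 was at 138 CPM in TG against 461 CPM in WT, a log2 ratio of -1.75 (-1.94 to -1.55). Klri2 was at 145 and 467 CPM, a log2 ratio of -1.69 (-1.88 to -1.503). Klrc2 was at 125 and 285 CPM, a log2 ratio of -1.19 (-1.41 to -0.97). These 3 of 6 members passed the 2-fold line downwards, beside 4.30% of all 9179 genes tested, and 0 of 6 passed it upwards, beside 3.92%. Klrc1 no longer passed without cluster 3 (-0.80), and neither Klrc2 (-0.80) nor Klri2 (-0.95) passed without cluster 11.

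Klrd1, the shared CD94 chain, was at 889 CPM in TG against 1210 CPM in WT, a log2 ratio of -0.45 (-0.54 to -0.35). Klre1 gave -0.32 and Klrk1 gave -0.22 on the same scale, and the median ratio of all genes was -0.04. The share of cells with a thinned UMI moved the same way, at 9.75% in TG and 32.8% in WT for Klrc1, 10.9% and 24.4% for Klrc2, and 9.09% and 30.2% for Klri2. NK-named cells with none of the 6 members detected made up 7.91% in TG and 2.28% in WT, and the mean number of members detected per cell was 1.97 and 2.77. Fewer members were thus seen per TG cell at equal depth.

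**Figure D2:**
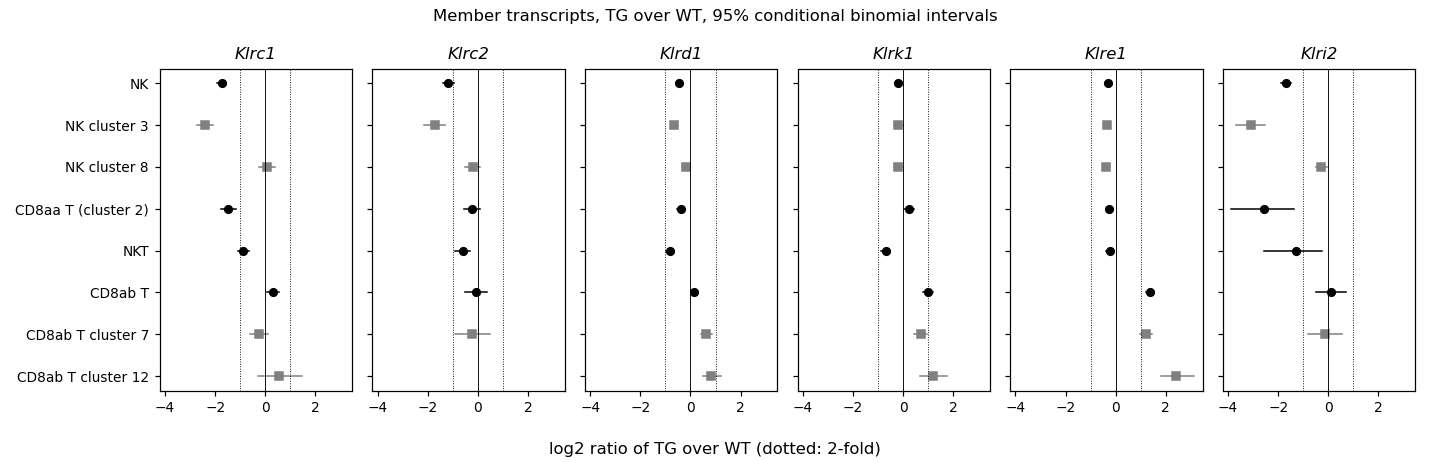
Log2 ratio of TG over WT for each receptor transcript, with exact conditional binomial 95% intervals, in 4 cell types (circles) and in clusters within them (squares); dotted lines mark 2-fold. Klrc1, Klrc2 and Klri2 lay below the 2-fold line in NK-named cells and near 0 in NK cluster 8, and Klre1 lay above it in CD8αβ T cells.

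The 3 clusters of NK-named cells did not behave alike. Cluster 8 was high in CD62L and low in CD49a, with a median CD62L value of 2.87 in TG and 3.05 in WT and a median CD49a value of 0.74 and 0.50 (centred log scale). In this cluster Klrc1 was at 262 CPM in TG (153 cells) and 251 CPM in WT (287 cells), a log2 ratio of 0.06 (-0.26 to 0.38). Klrc2 was at 288 and 332 CPM, a log2 ratio of -0.20 (-0.50 to 0.09), and Klri2 at 529 and 639 CPM, a log2 ratio of -0.27 (-0.49 to -0.06). T cell markers summed to 819 CPM in TG against 666 CPM in WT. Klrd1 was at 980.04 and 1099.6 CPM in the cluster, a log2 ratio of -0.17, Klrk1 gave -0.19 and Klre1 gave -0.37. In the cluster with the lowest T cell markers, the levels of each member in the 2 genotypes were thus within 2-fold.

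Cluster 3 was high in CD49a in both genotypes, with medians of 3.40 in TG and 3.32 in WT, and low in CD62L. Klrc1 was at 125 CPM in TG (263 cells) and 657 CPM in WT (306 cells), a log2 ratio of -2.39 (-2.71 to -2.08). Klri2 was at 38.01 and 319 CPM, a log2 ratio of -3.07 (-3.67 to -2.52), and Klrc2 at 74.8 and 246 CPM, a log2 ratio of -1.72 (-2.16 to -1.29). Klrd1 was at 836 and 1309.6 CPM, a log2 ratio of -0.65 (-0.79 to -0.51), while Klre1 gave -0.345 and Klrk1 gave -0.19. Of all genes, 4.40% were at least 2-fold lower in this cluster. The T cell markers, all 5 detected in both genotypes, summed to 5572 CPM in TG against 2467 CPM in WT. Cd3e was at 1608 CPM in TG against 122 CPM in WT, Trac at 1143 and 245 CPM, but Cd3g at 855 and 880 CPM. The 4 NK markers summed to 1917 and 2698 CPM, and Ncr1 was at 506 and 961 CPM. The 4 markers listed for group 1 innate lymphoid cells (Tmem176a, Tmem176b, Cxcr6 and Il7r) summed to 290 CPM in TG against 817 CPM in WT in cluster 3, and to 135 and 489 CPM in all NK-named cells. These 4 genes summed to 1147 and 1420 CPM in CD4+ T cells of TG and WT, so in T cells they do not mark innate lymphoid cells. The macrophage and monocyte markers, 3 of 4 detected in cluster 3, summed to 608 and 125 CPM there. That list summed to 4400 CPM in TG pDC against 3143 CPM in TG macrophages, so it does not mark only macrophages and monocytes.

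Cluster 11 held 343 TG cells and 22 WT cells, so it made up 45.2% of NK-named cells in TG and 3.58% in WT. Its TG cells held Klrc1 at 72.2 CPM, Klrc2 at 67.9 CPM and Klri2 at 1 UMI in all, beside Klrd1 at 878 CPM, Klre1 at 1155 CPM and Klrk1 at 663 CPM. Those TG cells had T cell markers at 4775 CPM, Cd3e in 96.8% of cells, and surface medians of 3.24 for CD49a and 0.21 for CD62L. The WT cells of the cluster differed from them in the panel, with a median CD49a of 0.56 and CD62L of 2.71, and held Klri2 at 432 CPM (20 UMIs). A ratio between these 2 sets of cells was not taken as a comparison of like cells. The antibody against CD3 gave median values of 0.44 on TG cells of cluster 11 and 0.41 on TG cells of cluster 3, against 0.33 on TG cells of cluster 8 and 0.55 on TG NKT cells of cluster 0.

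**Figure D3:**
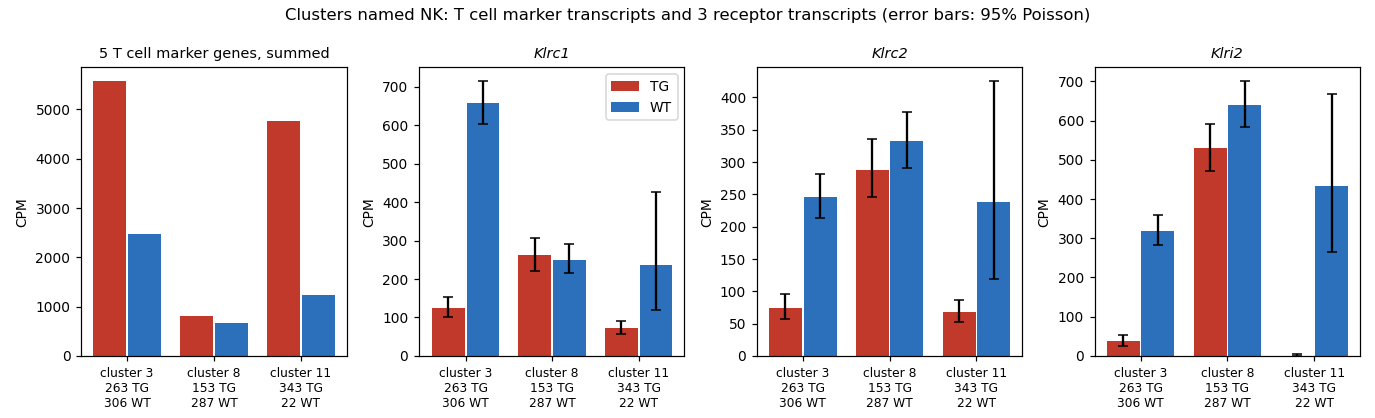
Summed level of 5 T cell marker genes and levels of Klrc1, Klrc2 and Klri2 (CPM) in the 3 clusters named NK, TG red and WT blue, with exact Poisson 95% intervals on the receptors. Klrc1 was at 262 and 251 CPM in cluster 8, where T cell markers were lowest, and at 125 and 657 CPM in cluster 3.

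Only 46 of the 759 NK-named TG cells, and 149 of the 615 WT cells, had no UMI of any of the 5 T cell markers. In these cells Klrc1 was at 250 CPM in TG against 285 CPM in WT, Klrc2 at 237 and 282 CPM, Klri2 at 423 and 582 CPM, and Klrd1 at 853 and 1226 CPM. The Klrc1 ratio was then -0.19 instead of -1.75, and no member passed 2-fold. This selection was added after seeing the data, leaves few TG cells and also takes out most WT cells. Against all NK-named cells, the Klrc1 level was higher in TG (250 CPM against 138 CPM) and lower in WT (285 CPM against 461 CPM). The change in the ratio thus came from both genotypes. Over all NK-named cells Cd4 was at 312 CPM in TG against 17.4 CPM in WT. The neutrophil markers summed to 341 and 106 CPM there, and the macrophage and monocyte list to 1522 and 442 CPM. The part of these and of the T cell and innate lymphoid transcripts in the lower NK levels of TG was not tested, nor was that of the share of each cluster.

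In CD8αα T cells (cluster 2, 410 TG and 194 WT cells), with Trdc-positive cells included, the balance between the inhibitory and the activating partner of CD94 differed. Klrc1 was at 122 CPM in TG against 336 CPM in WT, a log2 ratio of -1.47 (-1.78 to -1.16), whereas Klrc2 was at 199 and 236 CPM, a log2 ratio of -0.25 (-0.55 to 0.07). After thinning to 1000 UMIs a cell the Klrc2 ratio turned to 0.40, and the Klrc1 ratio was -1.75. In the full counts Klrc1 made up 37.9% of the UMIs of the 2 genes in TG (33.3 to 42.7) and 58.7% in WT (53.1 to 64.2). CD8αα T cells of TG were the cell type with the lowest such share among those with at least 20 UMIs of the pair. By cluster, NK cluster 8 came close, with 47.6% in TG and 43.0% in WT (38.3 to 47.9). The interval of cluster 8 in WT overlapped that of TG CD8αα T cells. The share was 52.4% and 61.9% in NK-named cells, 66.3% and 70.3% in NKT cells, and 78.5% and 73.3% in CD8αβ T cells of TG and WT.

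The WT CD8αα T cells included many Trdc-positive cells, 82 of 194 against 20 of 410 in TG. Without them Klrc1 was at 117 CPM in TG against 224 CPM in WT, a log2 ratio of -0.94, which no longer passed 2-fold. The Klrc2 ratio stayed within its interval. The share of Klrc1 was not computed without these cells, so the balance is not shown for Trdc-negative cells alone. Other markers differed as well in CD8αα T cells: the 2 erythrocyte genes summed to 0.755 CPM in TG against 2964 CPM in WT, and the neutrophil markers to 284 and 72.7 CPM. The B lineage markers summed to 122 and 29.1 CPM and the innate lymphoid list to 360.1 and 575 CPM, and Cd4 was at 113 and 10.9 CPM. The erythrocyte genes summed to 1.31 and 1067 CPM in NK-named cells, and the part of these markers was not tested. Klrd1 was at 910 and 1195 CPM in all CD8αα T cells, a log2 ratio of -0.39, and Klre1 at 1118 and 1327 CPM, a log2 ratio of -0.25. Klrk1 went the other way, at 608 CPM in TG against 513 CPM in WT, a log2 ratio of 0.25 (0.05 to 0.45). Klri2 had 9 UMIs in TG and 22 in WT, a log2 ratio of -2.56 (-3.86 to -1.38) that rested on few cells. In all, 2 of 6 members were at least 2-fold lower, beside 2.46% of 8046 genes, and 0 were higher, beside 5.37%.

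NKT cells (446 in TG, 2232 in WT) held lower levels of every member in TG, each by less than 2-fold except Klri2. This held for all NKT cells and not for those outside cluster 0 (clusters 19 and 20, with 20 and 23 cells in TG), where Klrd1 (0.093) and Klre1 (0.24) were higher in TG and Klrc1 (-1.83) and Klrc2 (-1.05) were past 2-fold lower. The 4 NK markers summed to 517 CPM in TG against 851 CPM in WT in NKT cells, Cd4 was at 634 and 162 CPM and the CD8 genes summed to 134 and 53.9 CPM, and their part in the lower members was not tested. Over all NKT cells, Klrc1 was at 113 CPM in TG against 207 CPM in WT, a log2 ratio of -0.88 (-1.10 to -0.66). Klrd1 was at 207 and 362 CPM, a log2 ratio of -0.80 (-0.97 to -0.64), and Klrk1 at 185 and 299 CPM, a log2 ratio of -0.69 (-0.86 to -0.52). Klrc2 gave -0.61 and Klre1 gave -0.23. Klri2, with 8 UMIs in TG and 74 in WT, gave -1.31 (-2.57 to -0.25). Thus 1 of 6 members passed 2-fold downwards, beside 2.71% of 10051 genes, and 0 upwards, beside 4.00%. No member was detected in 66.6% of NKT cells in TG and in 49.8% in WT at equal depth. Cluster 0 held 90.4% of TG and 89.0% of WT NKT cells.

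CD8αβ T cells (1020 in TG, 819 in WT) showed the opposite direction for Klre1 and Klrk1. Klre1 was at 289 CPM in TG against 112 CPM in WT, a log2 ratio of 1.36 (1.195 to 1.54). Klrk1 was at 188 and 94.0 CPM, a log2 ratio of 1.00 (0.81 to 1.19) just under the 2-fold line. Klrd1 was at 303 and 277 CPM, a log2 ratio of 0.13, and Klrc1 at 80.3 and 64.6 CPM, a log2 ratio of 0.32 (0.07 to 0.57). Klrc2 gave -0.09 (-0.53 to 0.35) and Klri2 gave 0.09 (-0.49 to 0.70). So 1 of 6 members passed 2-fold upwards, beside 4.15% of 10309 genes, and 0 downwards, beside 3.05%. These calls moved with the cells counted: without cluster 4 Klre1 gave 0.98, under the line, and Klrk1 gave 0.62. Klrk1 passed it with equal weight for each cell (1.31), after thinning (1.38) and without cluster 13 (1.27). The Klrc1 ratio turned to -0.097 without cluster 4 and was 0.77 after thinning, Klrd1 turned to -0.11 without cluster 7 or cluster 12, and Klri2 turned to -0.85 without cluster 7. The NK markers, all 4 detected, summed to 482 CPM in TG against 295 CPM in WT in these cells. The macrophage and monocyte list summed to 1660 and 799.6 CPM, and the innate lymphoid list to 544 and 909.9 CPM. As stated above, neither of the last lists marks only the cells in its name. The part of all these lists in the higher Klre1 and Klrk1 was not tested. The share of cells with a thinned Klre1 UMI was 19.7% (17.3 to 22.3) in TG and 5.98% (4.46 to 7.83) in WT.

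The make-up of the CD8αβ T cells differed between the genotypes. Cluster 4, which was high in CD62L (3.34 in TG, 3.28 in WT), was 14.2% of CD8αβ T cells in TG and 44.3% in WT, and held little Klrk1 (18.01 and 5.72 CPM). Klre1 there had 19 UMIs in TG and 6 in WT, or 26.3 and 5.72 CPM, a log2 ratio of 2.20 (0.82 to 3.82), and Klrc1 had 16 and 5, a log2 ratio of 2.22 (0.70 to 4.02). For Klre1 these levels were close to the background in mature B cells of cluster 1 (TG 16.6 CPM, WT 3.88 CPM), so no direction was read. Klrc1 was not close to that background in TG, with 22.2 CPM in cluster 4 against 1.59 CPM in those B cells. The WT values of Klrc1 were 4.77 and 2.47 CPM. Its ratio rested on only 16 and 5 UMIs, so no direction was read from it either. Within cluster 12, Klre1 was at 538 CPM in TG (249 cells) and 100.2 CPM in WT (73 cells), a log2 ratio of 2.42 (1.81 to 3.12), where 8.74% of all genes were at least 2-fold higher. Within cluster 7 it was at 412 and 180 CPM, a log2 ratio of 1.195 (0.96 to 1.44). Klrk1 was at 350 and 155 CPM in cluster 12, a log2 ratio of 1.18, and at 266 and 163 CPM in cluster 7, a log2 ratio of 0.71. In cluster 13, by contrast, Klre1 was at 102 and 101 CPM in TG and WT, a log2 ratio of 0.012 (-0.50 to 0.54). Klre1 and Klrk1 were thus also higher in TG inside clusters 7 and 12, but not inside cluster 13. The TG and WT cells of clusters 7 and 12 differed in the panel, however. Median CD49a was 1.92 in TG against 0.48 in WT in cluster 7, and 2.05 against 0.46 in cluster 12. In cluster 13 the CD49a medians were 0.67 and 0.45. The ratios inside clusters 7 and 12 are therefore not a comparison of like cells, and the part of this gap was not tested. Cluster 7 matched its CD8αβ name less closely than the others, with a median surface CD8b value of 0.57 in TG and 0.59 in WT, against 1.43 to 2.10 in clusters 4, 12 and 13 and 0.41 and 0.49 in CD8αα T cells. Its CD8 genes summed to 752 and 705 CPM. The NK markers summed to 659 and 315 CPM in cluster 7 and to 467 and 323 CPM in cluster 12. The macrophage and monocyte list summed to 1263.5 and 563 CPM in cluster 7 and to 1919.5 and 952 CPM in cluster 12. The innate lymphoid list summed to 153 and 421 CPM in cluster 7 and to 129 and 678 CPM in cluster 12. The part of these lists was not tested.

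Klrd1 took different directions within the same cell type. It was at 617 CPM in TG against 346 CPM in WT in cluster 12, a log2 ratio of 0.83 (0.48 to 1.204), and at 327 and 212 CPM in cluster 7, a log2 ratio of 0.63. In cluster 13 it was at 204 and 418 CPM, a log2 ratio of -1.03 (-1.32 to -0.74), and in cluster 4 at 152 and 208 CPM, a log2 ratio of -0.45. Cluster 13 also held Klrk1 at 66.1 and 120 CPM, a log2 ratio of -0.86, but Klrc1 at 122 and 55.8 CPM, a log2 ratio of 1.13 (0.51 to 1.79). Its surface CD122 median was 1.47 in TG and 0.93 in WT. The γδ T cell markers summed to 43.3 CPM in TG against 122 CPM in WT in cluster 13, and the neutrophil markers to 247 and 91.0 CPM. Cd4 was at 74.3 and 16.5 CPM there, and the part of these markers was not tested. Of all genes, 3.95% were at least 2-fold lower and 4.88% at least 2-fold higher in this cluster. The near-equal Klrd1 of all CD8αβ T cells therefore covered clusters of both directions.

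Members were sparse in CD4+ T cells (238 in TG, 734 in WT). Klre1 had 26 UMIs in TG and 23 in WT, or 30.8 and 11.8 CPM, and 57.7% of the TG UMIs came from 3 cells. The background of this gene also differed between the libraries, with mature B cells outside cluster 17 at 17.3 CPM in TG against 3.84 CPM in WT. Klrc1 had 5 and 25 UMIs, a log2 ratio of -1.12 (-2.86 to 0.29). Of the 4 members with at least 20 UMIs, 1 was past 2-fold upwards, beside 5.41% of 8536 genes, and 1 downwards, beside 3.28%. Klrd1 had 29 and 129 UMIs, a log2 ratio of -0.95 (-1.58 to -0.36). In macrophages, Klre1 had 53 UMIs in TG and 18 in WT, a log2 ratio of 2.75 (1.96 to 3.61), with 37.7% of the TG UMIs in 3 cells. In the same cells the 4 NK markers summed to 219 CPM in TG against 45.7 CPM in WT, the 5 T cell markers to 711 and 463 CPM, and the macrophage and monocyte markers to 3143 and 7145 CPM, and their part in the Klre1 value was not tested.

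CD94 RNA was also found where its NKG2 partners were scarce. In WT pDC (219 cells) Klrd1 was at 231 CPM, which was 19.1% of its NK level, while Klrc1 at 13.3 CPM was 2.89% and Klrc2 at 5.71 CPM was 2.01% of theirs. In TG, 46 pDC held Klrd1 at 214 CPM with 0 UMIs of Klrc1 and of Klrc2, a count that allows a level of up to 10.7 CPM at a limit of 3 counts. The thinned share of pDC with Klrd1 was 19.6% in WT (14.6 to 25.5) and 19.6% in TG (9.36 to 33.9). WT pDC held 3 UMIs of Klre1 beside 243 of Klrd1, whereas WT NK cells held 2196 beside 1943, so the counts in pDC were not in the NK ratio.

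Macrophage cluster 15 held Klrd1 at 290 CPM in WT (158 cells) and 237 CPM in TG (89 cells), which were 24.0% and 26.7% of the NK level. Klrc1 was at 13.2 CPM in WT and 22.6 CPM in TG, or 2.87% and 16.4% of its NK level. CD8αβ T cells of cluster 4 were alike in WT, with Klrd1 at 208 CPM and Klrc1 at 4.77 CPM. The reverse was seen in WT γδ T cells (192 cells), where Klrk1 at 201 CPM was 25.4% of its NK level and Klrd1 at 41.4 CPM was 3.42%. TG had 17 γδ T cells, too few for a comparison.

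**Figure D4:**
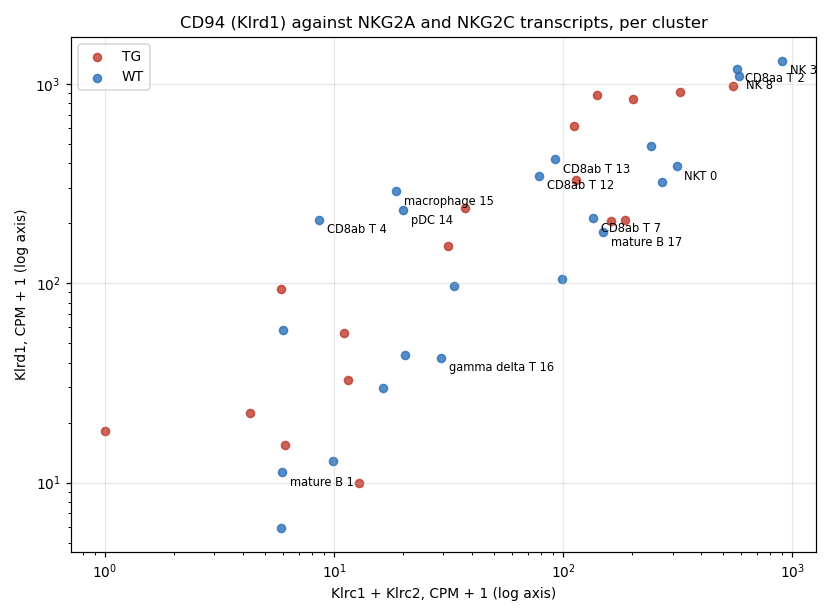
Level of Klrd1 against the summed level of Klrc1 and Klrc2 (CPM + 1, log axes) in each deposited cluster, TG red and WT blue. In WT, pDC, macrophage cluster 15 and CD8αβ T cell cluster 4 lay at 208 to 290 CPM of Klrd1 with Klrc1 at no more than 13.3 CPM, whereas CD8αβ T cell cluster 13 lay at 418 CPM of Klrd1 with Klrc1 at 55.8 CPM.

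Co-detection in individual cells was compared with the product of the 2 separate shares (thinned cells). In NK-named WT cells, Klrd1 and Klre1 were found together in 281 of 615 cells, 45.7%, against 46.2% from the product. Pairs among Klrc1, Klrc2 and Klri2 stood above the product in TG and near or below it in WT. Klrc2 and Klri2 were together in 19 NK-named TG cells, 2.52 times the product, against 0.992 times in WT, Klrc1 and Klri2 in 15 TG cells, 2.23 times, against 0.753 times, and Klrc1 and Klrc2 in 13 TG cells, 1.61 times, against 0.771 times. For Klrc1 and Klrc2 the interval of the share held the product in both genotypes (0.915 to 2.91% around 1.07% in TG, 4.41 to 8.38% around 8.01% in WT), and of the other pairs among these 3 genes only Klrc2 with Klri2 in WT did. Klri2 with Klrd1, Klrk1 and Klre1 gave 0.988, 1.106 and 1.01 times in TG and 0.978, 0.975 and 1.08 times in WT. In NKT cells each pair of members other than Klri2 was found together more often than the product, between 1.28 and 2.57 times in WT and between 1.53 and 3.59 times in TG. Klri2 was rare there, and with Klrd1 it gave 0.935 times in WT (6 cells). With the other members it was above the product in WT, at 1.66 times for Klrc1 (6 cells) and 1.12 times for Klrc2 (2 cells). It gave 1.65 times with Klrk1 (9 cells) and 2.54 times with Klre1 (10 cells). Klrc1 and Klrc2 were found together in 59 of 2232 WT cells, 2.64%, which was 2.57 times the product, and in 3 of 446 TG cells, 1.53 times, where the interval of the share (0.14 to 1.95%) held the product of 0.44%. Klrd1 and Klre1 were together 1.79 times as often as the product in WT (162 cells) and 2.62 times in TG (27 cells). In CD8αβ T cells the same pair gave 1.88 times in TG and 1.91 times in WT. A mixture of clusters within a cell type can raise such values, or lower them where members lead in different clusters, as Klrc1 and Klri2 did in WT clusters 3 and 8, and its part was not tested.

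No antibody read a member, but surface markers were compared between cells with and without a thinned UMI of a member inside a cluster. In TG NKT cells of cluster 0, the median NK1.1 value was 1.91 on 66 cells with Klrd1 and 1.11 on 337 cells without. It was 2.02 and 1.17 for Klrk1, and 1.85 and 1.15 for Klre1. In WT cells of the same cluster the values were close, at 1.102 and 1.06 for Klrd1. There, CD49a was the marker that differed, at 2.35 on 301 cells with Klrc1 and 1.89 on 1685 cells without.

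In TG CD8αβ T cells of cluster 7, the median CD49a value was 2.72 on 86 cells with Klrd1 and 1.203 on 233 cells without. It was 2.83 and 1.26 for Klre1, and 2.68 and 1.47 for Klrk1. CD49a is an integrin chain of tissue-resident lymphocytes. These 3 members and CD49a thus went together in TG cells of this cluster. The other members, and all members in WT cells of the cluster, had fewer than 50 cells with or without a UMI and were not compared. Among all NK-named WT cells, those with Klrc1 had a median CD49a of 2.89 against 0.98 without, and those with Klri2 had 0.69 against 2.56. Inside clusters 3 and 8 of WT these gaps were at most 0.08, so they followed the clusters.

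**Figure D5:**
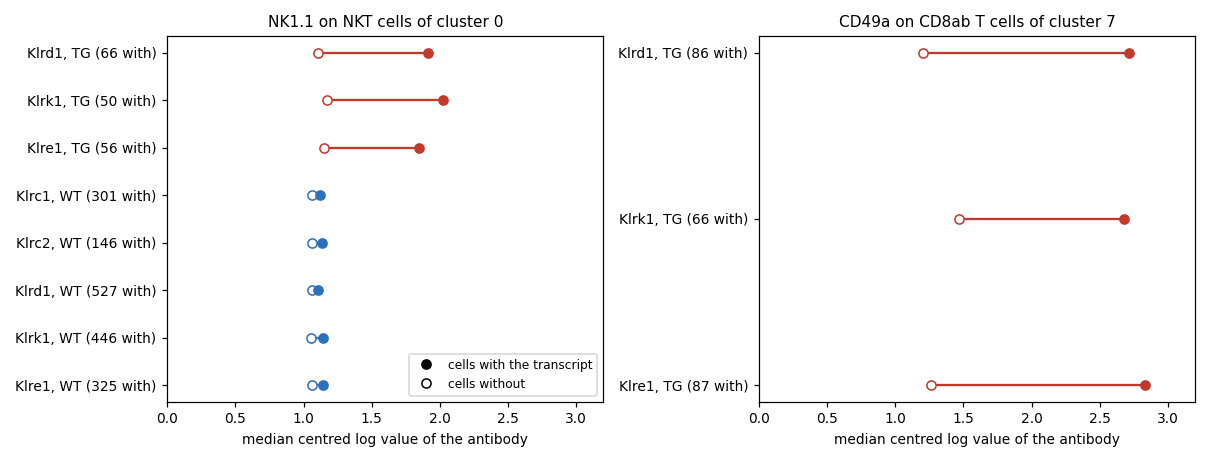
Median antibody value (centred log scale) on cells with (filled) and without (open) a transcript of the member named, for NK1.1 on NKT cells of cluster 0 (TG red, WT blue) and CD49a on CD8αβ T cells of cluster 7 (TG only), where at least 50 cells were on each side. NK1.1 was 1.91 against 1.11 for Klrd1 in TG and 1.102 against 1.06 in WT.

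The adaptors of these receptors had values of their own. Hcst, which encodes DAP10, was higher in TG in NK-named, NKT, CD8αα T, CD8αβ T and CD4+ T cells, by less than 2-fold in each. In all mature B cells Hcst was at 88.1 and 105 CPM, a log2 ratio of -0.25 (-0.47 to -0.03). Mature B cells here included cluster 17, which was 10.4% of them in WT and 2.72% in TG. T cell markers summed to 441 CPM in TG against 1009.5 CPM in WT over all mature B cells, and their part was not tested. In immature B cells Hcst was at 78.6 and 45.2 CPM, a log2 ratio of 0.80 (0.28 to 1.34). It measured 803 and 489 CPM in NK-named cells of TG and WT, a log2 ratio of 0.72 (0.59 to 0.84), at 907 and 593 CPM in CD8αα T cells, a log2 ratio of 0.61, and at 501 and 351 CPM in CD8αβ T cells, a log2 ratio of 0.51. Tyrobp, which encodes DAP12, was lower in TG in NK-named and CD8αα T cells, at 1552 and 2305 CPM in NK-named cells, a log2 ratio of -0.57, and at 1176 and 1582 CPM in CD8αα T cells, a log2 ratio of -0.43. In macrophages, which also hold it in abundance, it was at 1483 and 1379 CPM, a log2 ratio of 0.105 (-0.01 to 0.22). It was higher in TG in the other T cells compared, at 176 and 57.1 CPM in CD8αβ T cells, a log2 ratio of 1.62 (1.39 to 1.87), at 70.2 and 27.6 CPM in NKT cells, a log2 ratio of 1.35, and at 55.6 and 13.9 CPM in CD4+ T cells, a log2 ratio of 2.00.

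Of 21 partner, adaptor, signalling and ligand genes listed, 17 were in the table and 15 had at least 20 UMIs in each of the 5 comparisons. In NK-named cells 1 was past 2-fold downwards, the tyrosine kinase gene Syk at 59.6 CPM in TG against 126 CPM in WT, a log2 ratio of -1.08, beside 4.30% of all genes, and 0 upwards, beside 3.92%. In NKT cells 3 were past 2-fold upwards: Tyrobp, Syk with a log2 ratio of 1.11, and the phospholipase gene Plcg2 with 1.95, beside 4.00% of all genes. In CD8αβ T cells 2 were, Tyrobp and Plcg2, the latter at 41.3 and 15.01 CPM, a log2 ratio of 1.46, beside 4.15%. In CD4+ T cells 3 were, Tyrobp, Syk with 1.40 and Plcg2 with 2.10, beside 5.41%, and in CD8αα T cells 0 were, beside 5.37%. With a minimum of 100 UMIs, 1 was left in NKT cells and 0 in CD4+ T cells. None was past 2-fold downwards in the T cell types. Of all genes, 2.71% were in NKT, 2.46% in CD8αα T, 3.05% in CD8αβ T and 3.28% in CD4+ T cells. Tyrobp, Syk and Plcg2 are also made by B or myeloid cells. The B lineage markers (4 of 4 detected) summed to 94.0 CPM in TG against 33.2 CPM in WT among NKT cells, to 178 and 146 CPM among CD8αβ T cells, and to 123 and 57.5 CPM among CD4+ T cells. The neutrophil markers (3 of 3 detected) summed to 275 and 101 CPM, 261 and 92.98 CPM, and 406 and 129 CPM in the same order. The macrophage and monocyte markers were lower in TG among NKT cells, at 643 CPM against 891 CPM, and higher among CD8αβ T cells, at 1660 and 799.6 CPM, and CD4+ T cells, at 379 and 199 CPM. This last list was also high in TG pDC, at 4400 CPM, so it does not mark only macrophages and monocytes. The part of these markers in the values was not tested. Outside these types, Hcst was at 139 and 65.0 CPM in macrophages of TG and WT, a log2 ratio of 1.095, Zap70 at 13.4 and 38.7 CPM in mature B cells, a log2 ratio of -1.53, and Lcp2 had 7 and 23 UMIs in immature B cells, a log2 ratio of -1.98. The mature B cells of the Zap70 value included cluster 17, with T cell markers at 4009 CPM in WT, and its part was not tested.

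The median log2 ratio of the listed genes was -0.02 in NK-named, 0.27 in NKT, 0.08 in CD8αα T, 0.10 in CD8αβ T and 0.37 in CD4+ T cells, beside medians of all genes of -0.04, 0.03, 0.02, 0.03 and 0.08. The members' medians in the same order were -0.82, -0.75, -0.32, 0.22 and -0.79. H2-T23, the Qa-1 gene, was at 465 and 397 CPM in NK-named cells of TG and WT, a log2 ratio of 0.23, and at 300.2 and 297 CPM in CD8αβ T cells, a log2 ratio of 0.02 (-0.10 to 0.13). The ligand gene of CD94 was thus measured in the same cells and within 2-fold in NK-named, NKT, CD8αα T, CD8αβ T and CD4+ T cells. The NKG2D ligand gene Ulbp1 had at most 41.1 CPM in these cell types, and Klri1 had 14 UMIs in TG and 17 in WT over all cells.

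The genes whose pattern was most like that of each member were ranked by Pearson's r of log2(CPM + 10) over 21 profiles of cell type and genotype, which share 2 libraries, with the members themselves left out of the ranking (Klre1 would otherwise stand between Klrb1c and Cd160 for Klrc2). For Klrc1 they were Samd3 (0.945), AI847159 (0.942) and Gm14029 (0.932), and for Klrc2 Xcl1 (0.978), Klrb1c (0.955) and Cd160 (0.945). For Klre1 they were Cd160 (0.971), Gzmb (0.967) and Spry2 (0.956), and for Klrd1 Padi2 (0.967), Serpinb9 (0.910) and Cd7 (0.903). Klrk1 was most like Klrb1f (0.949), Gm14029 (0.936) and Klrb1c (0.929), and Klri2 most like Kcnip3 (0.941), Klra8 (0.933) and Klrb1b (0.917). Several of these are themselves NK genes, among them Klrb1c, which encodes NK1.1, and the granzyme gene Gzmb. The ranking changed with the measure for some members. By Spearman's rho Padi2, Klrb1f and Cd160 stayed first for Klrd1, Klrk1 and Klre1, and Xcl1 and Kcnip3 came second for Klrc2 and Klri2, but Klrc1 was most like Pdcd6ip (0.899), Inka2 (0.893) and Calu (0.892), and none of its 3 genes above was among the first 10. Over 39 cluster profiles Pearson's r put Klrb1c first for Klrc1 (0.870), Klrc2 (0.919), Klrk1 and Klre1.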

How the data were processed

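CD45+ liver cells of TG and WT mice were captured in 2 libraries (BD Rhapsody). The authors deposited UMI counts per gene and cell, made with the BD Rhapsody pipeline and STAR on mm10, together with cell type, cluster and genotype names from Seurat after CCA integration. The filter on cells is not given in the sources used here. The antibody values were deposited by the authors as centred natural log values and were used as such. Names and clusters were made from all genes, so levels by cluster are a description. Counts of the members in the filtered table equalled those in the library tables in every cell, whereas Klrc3 had been set to 0 in TG (5 UMIs).

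From these files, counts were summed per cell type and genotype. Levels carry Poisson, ratios conditional binomial and shares Clopper-Pearson 95% intervals (scipy 1.17.1, numpy 2.4.6, pandas 2.3.3), which cover counting error only. A ratio needed at least 20 UMIs over both profiles, and cells were thinned to 1000 UMIs for shares. Only the ratio intervals were checked on simulated data, and 95.9% of them held the true ratio. The simulated counts were Poisson, as the interval assumes, so the check does not cover a wider spread between cells or mice. No doublets were removed, since the treatment of doublets before deposit is not given in the sources used here; Scrublet (scanpy 1.11.5) marked 0.839% of TG and 3.31% of WT cells, and leaving these out was an alternative. TMM factors came from edgeR 4.0.16, on which no test was run. Coding identity was computed with Biopython 1.88.

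The text names the 6 members, every adaptor, genes of the list of 21 past 2-fold with at least 20 UMIs, and the 3 genes most like each member. The members and lists were chosen with earlier results of these data known. Other genotypes of the pools, and 4 of the listed ligand genes, were not analysed here beyond the values given under other observations.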

Additional observations from a re-analysis of the deposited data

Results flagged for a closer look

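With 1 library per genotype none of the differences between cell types or clusters given here was tested. They are listed because a member passed 2-fold in 1 direction in a cell type or cluster and went the opposite way, with an interval that left out 0, in another. The log2 ratio of TG over WT for Klrc1 was lower by 2.06 in NK-named cells than in CD8αβ T cells (-1.75 against 0.32, difference -2.06) and by 1.78 in CD8αα T cells than in CD8αβ T cells (difference -1.78). These Klrc1 differences rest on which cells are counted, since the CD8αβ T cell ratio was -0.097 without cluster 4, the NK-named ratio was -0.80 without cluster 3 and -0.19 without cells with T cell markers, and the CD8αα T cell ratio was -0.94 without Trdc-positive cells. For Klre1 the ratio in CD8αβ T cells exceeded that in NK-named cells by 1.69 (1.36 against -0.32), that in NKT cells by 1.60 and that in CD8αα T cells by 1.61. Without cluster 4 the CD8αβ T cell ratio of Klre1 was 0.98, under 2-fold. Within CD8αβ T cells, the Klrd1 ratio of cluster 13 differed from that of cluster 7 by -1.66 and from that of cluster 12 by -1.87. The Klrk1 ratio of cluster 12 exceeded that of cluster 13 by 2.04.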

How the results depend on the processing

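No paired analysis was possible because each genotype was 1 library with no replicate number. All 24 member ratios in NK-named, NKT, CD8αα T and CD8αβ T cells moved by less than their intervals with TMM scaling, totals without ribosomal protein and mitochondrial genes, Scrublet doublets left out, cells with B lineage UMIs left out, library file counts, and cells with a shared index left out (chosen after seeing the data). In NK-named cells the ratios that moved were, for Klrc1, -1.98 thinned, -1.99 without Trdc-positive cells, -0.80 without cluster 3, -2.72 without cluster 8, -1.36 without cluster 11 and -0.19 without cells with T cell markers (also chosen after seeing the data). In that order of settings, Klrc2 gave -1.79, -0.80 and -0.25 for the last 3, and Klrd1 gave -0.27 and -0.60 without clusters 3 and 8. Klrk1 gave -0.087 and Klre1 -0.23 without T cell marker cells. Klri2 gave -1.96 with equal weight per cell, -2.004 without Trdc-positive cells, -4.17, -0.95 and -0.46 without clusters 8, 11 and T cell marker cells. In NKT cells without cluster 0, Klrc1 gave -1.83, Klrc2 -1.05, Klrd1 0.093 and Klre1 0.24. In CD8αα T cells, Klrc1 gave -0.94 without Trdc-positive cells and Klrc2 0.40 thinned. In CD8αβ T cells, Klrc1 gave 0.77 thinned and -0.10, 0.66 and 0.57 without clusters 4, 7 and 23. Klrd1 gave -0.11, -0.11 and 0.37 without clusters 7, 12 and 13, and Klri2 gave -0.85 without cluster 7. Klrk1 gave 1.31 with equal weight, 1.38 thinned, and 0.62 and 1.27 without clusters 4 and 13. Klre1 gave 1.59 with equal weight, 1.78 thinned, and 0.98, 1.17, 1.14 and 1.69 without clusters 4, 7, 12 and 23. The cause of these moves was not tested beyond which cells were left out.

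Counts of genes past 2-fold follow the UMI minimum. With at least 1 UMI they were, higher and lower in TG, 1599 and 1453 in NK-named, 1288 and 1395 in NKT, 2245 and 1137 in CD8αα T, 1338 and 1215 in CD8αβ T, and 1840 and 1581 in CD4+ T cells. With at least 100 UMIs they were 97 and 105, 97 and 56, 58 and 21, 153 and 93, and 105 and 54 in the same order, and of the listed genes 1 was higher in NKT cells and 0 in CD4+ T cells. NK cells led 9 of 12 orders of the share of cells at 1000 UMIs and 4 with all UMIs. Klrc1 and Klrc2 were together in CD8αα T cells of TG 0.189 times as often as their product when thinned (1 cell) and 1.19 times with all UMIs. Levels under about 20 UMIs were imprecise, and so were the ratios that rest on them, also where the interval left out 0.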

Other observations

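Mature B cells of cluster 17 held receptor transcripts. In WT the 155 cells of the cluster had Klrc1 at 23.5% and Klrd1 at 14.9% of their NK levels, and with the cluster included mature B cells of WT had Klrc1 at 23.9 CPM instead of 2.44 CPM. The cluster made up 10.4% of mature B cells in WT and 2.72% in TG. Its WT cells held the 5 T cell markers at a summed 4009 CPM and the 4 B lineage markers at 3364 CPM.

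Cells of the libraries with no genotype name were not used in any comparison. In the first library, 5379 such cells held Klrc1 at 62.8 CPM, Klrc2 at 48.5 CPM, Klrd1 at 277 CPM, Klrk1 at 182 CPM, Klre1 at 265 CPM and Klri2 at 26.4 CPM. In the second library, 16829 such cells held the same genes at 88.5, 20.4, 211, 73.4, 141 and 17.99 CPM. These cells can belong to either genotype of a library.

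Klrc3, which was 0 in TG cells of the filtered table, had 32 UMIs in the unnamed cells of the first library and 5 in TG cells of the library table, against 30 in WT cells.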
